A study of Mus musculus with 10 samples.

Results

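The transduction apparatus of hair cells was examined through 10 genes: *Tmc1*, *Tmc2*, *Tmie*, *Lhfpl5* and *Cib2* of the channel complex, *Cdh23* and *Pcdh15* of the tip link, *Ush1c* and *Ush1g* of the scaffold that anchors it, and *Loxhd1*. They were found by their symbols in the count files, where 34590 genes are listed, and all 10 were among the 16891 genes with enough counts to be tested. The filter needed enough counts in only 2 libraries, so a gene close to 0 in supporting cells (SCs) passed through its reads in another cell type.

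Hair cells (HCs) turn sound into a receptor current at the tips of their stereocilia. A tip link of cadherin 23 and protocadherin 15 joins each stereocilium to its taller neighbour, and tension on the link opens channels formed by the TMC proteins. TMIE, LHFPL5 and CIB2 bind the TMC proteins or protocadherin 15 and are needed for the channel to reach or work at the tip, while harmonin and SANS, the products of *Ush1c* and *Ush1g*, hold the upper end of the link to the actin core. Cochlear HCs use TMC2 early in postnatal life and TMC1 afterwards, and mutations in most of these genes cause deafness.

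The study asked how far SCs that had been forced to express Atoh1 resembled HCs, and 2 bulk RNA-seq libraries of handpicked, pooled mouse cochlear cells were deposited for each of 5 cell types. SCs (P26) were tdTomato-labelled Deiters' and pillar cells of mice carrying Fgfr3iCreER+ and, as the reporter allele, Rosa26-CAG-loxP-stop-loxP-tdTomato+, with P27 in the title of library 12 and P26 in that of library 11. Converted hair cells, or cHCs (P33), carried the same alleles with Atoh1-HA+ and alpha9 AChR-EGFP+, so that the CAG promoter drove Atoh1-HA in Cre-positive SCs, and cells with both tdTomato and EGFP were picked (libraries 13 and 16). Per the study's methods, tamoxifen was given to the mice of both groups in the second postnatal week. Outer hair cells, OHCs (P7), are labelled as prestin-YFP knock-in (YFP/+) cells at P7, whereas the supplement of the study names Prestin-CreERT2; tdTomato mice and tamoxifen (libraries 15 and 14). OHCs (P22) came from prestin-YFP (YFP/+) mice, with 21 and 22 in the titles of the libraries called m21 and f22. Inner hair cells, IHCs (P74), came from Pval-Cre+ mice whose reporter is labelled as that of the SCs, although the titles name Ai9, with 74 and 75 in the titles of the libraries called m74 and m75. No strain background is given in the sources used here. The study calls the duplicates biological, but the labels tie no library to an animal, so the p values measure only the spread between these libraries.

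The libraries held from 15016129 to 40518766 reads on genes, and 3 counts stood for 0.0762 to 0.264 CPM (counts scaled to the TMM-adjusted library size), a floor that covers counting error only because the amplified reads carry no molecular identifiers. For 4 of the 10 sample records the attached file held another library's counts, and each file was assigned to the library whose column in the deposited normalized table was a constant multiple of its counts. The library numbers fall into a series of 11 to 16 (SCs, cHCs and OHCs (P7)) and one of higher numbers, here called by the ages in the titles (OHCs (P22) and IHCs), and across these series cell type and series cannot be told apart. Library m21 stood apart, with a TMM factor of 0.583 against 0.930 to 1.20 in the others and with the fewest genes detected, 14332. The labels held for the defining markers of the mature cells: *Slc26a5* (prestin) had 3789 and 2749 CPM in OHCs (P22) and at most 1.31 CPM in IHCs, and *Slc17a8* (vesicular glutamate transporter 3) had 1907 and 1763 CPM in IHCs, 52.5 and 35.4 CPM in OHCs (P22) and 75.5 and 26.3 CPM in OHCs (P7). In cHCs the summed level of 6 HC markers, at 4102 and 5155 CPM, lay above that of SCs, at 362 and 360 CPM, while 9 SC markers summed to 1198 and 882 CPM (1598 and 2229 CPM in SCs). Much of the cHC sum came from *Fgfr3* (458 and 431 CPM) and *Prox1* (247 and 293 CPM), both above their SC levels, and the other 7 markers were lower in both cHC libraries than in both SC libraries. The same SC markers summed to 912 and 735 CPM in IHCs, of which *Gjb2* gave 611 and 468 CPM. Their sum was 110 and 365 CPM in OHC (P7) libraries 15 and 14, and 19.6 and 10.1 CPM in OHCs (P22). A list of 6 mesenchyme markers summed to 705 and 812 CPM in SCs, mostly from *Lum* (684 and 716 CPM). It gave 196 and 16.4 CPM in cHC libraries 13 and 16, and 405 and 53.2 CPM in OHC (P7) libraries 15 and 14. In IHCs it gave 39.2 and 130 CPM, and in OHCs (P22) 3.09 and 3.37 CPM. The OHC marker *Ocm* (oncomodulin) had 4.98 and 1.91 CPM in cHCs against 7562 and 9278 CPM in OHCs (P22).

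In cHCs, 6 of the 10 genes were higher than in SCs at an FDR under 0.05, namely *Tmc1*, *Tmie*, *Lhfpl5*, *Cib2*, *Cdh23* and *Loxhd1*, and none was lower. The FDR is the edgeR p value adjusted by Benjamini and Hochberg's method over all 16891 genes, of which 1.84% were called in this comparison and 1.75% were called higher. In 8 genes both cHC libraries exceeded both SC libraries, which held for 25.4% of all genes tested, and the exceptions were *Pcdh15* and *Ush1c*. The median log2 fold change from SCs to cHCs was 8.76 over the 10 genes and 0.03 over all genes tested. When only the libraries numbered 11 to 16 were fitted, a setting chosen after seeing the data, 6 genes again passed, with *Tmc2* (FDR = 0.0356) in place of *Tmc1* (FDR = 0.0824). Over all 15599 genes of that fit, 310 were called higher and 14 lower. With the files taken as attached to the records, 0 of the 10 genes passed in this comparison, as did 0 of all 16891 genes. The 4 comparisons with SCs share the SC libraries and are therefore not independent of each other.

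**Figure D1:**
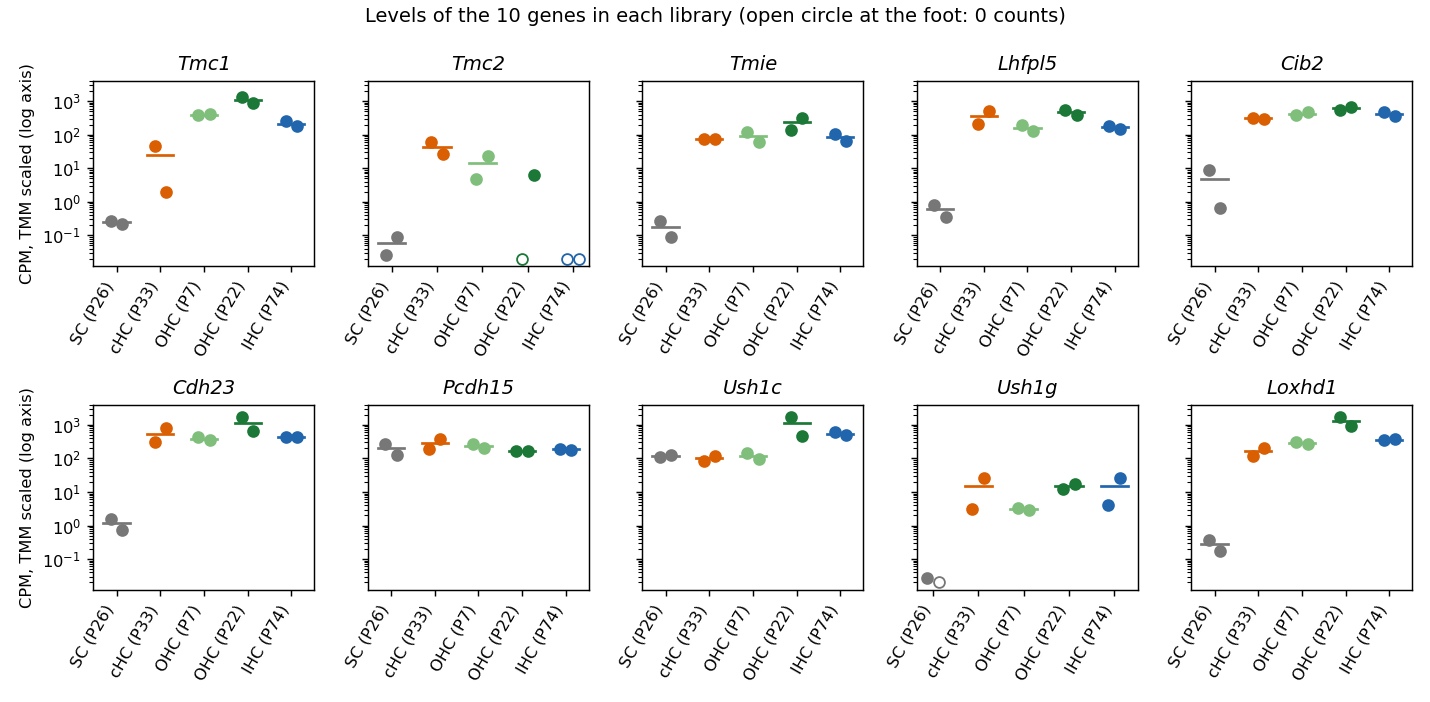
Level of each gene in every library, in CPM after TMM scaling on a log axis, for the 5 cell types; each point is a library, a horizontal line is the mean of 2 libraries with counts, and an open circle at the foot marks 0 counts. *Pcdh15* and *Ush1c* stand near or above 100 CPM already in SCs, whereas the other 8 genes stand below 10 CPM there.

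*Tmc1* (ENSMUSG00000024749, chr19:20857948-21028692 in mm9, minus strand) encodes the pore-forming subunit of the mature channel. It had 0.222 and 0.266 CPM in SCs, from 5 and 10 reads, and 46.2 CPM in cHC library 13 but 1.91 CPM in cHC library 16. OHCs (P7) had 403 and 399 CPM, OHCs (P22) 1302 and 898 CPM, and IHCs 249 and 184 CPM. The cHC libraries thus lay above the SC libraries and below every HC library, and they differed from each other 24.3-fold, more than the duplicates of any other cell type. The order of the mean levels was OHCs (P22), OHCs (P7), IHCs, cHCs and SCs, and no neighbours in it overlapped. From SCs to cHCs, *Tmc1* rose by 6.59 on the log2 scale (SE 1.24, edgeR FDR = 0.0205). This rise was 2.93 without library 13 and 7.53 without library 16, it did not pass in limma-voom (FDR = 0.240) or when only these 4 libraries were fitted (FDR = 0.183), and it did not pass without SC library 12 (FDR = 0.0810) or 11 (FDR = 0.0738). Library 13 also held more RNA of both the OHC marker *Slc26a5* (97.6 against 23.4 CPM) and the SC markers *Sox9* (126 against 16.0 CPM) and *Gjb2* (83.4 against 1.73 CPM) than library 16, and the part of these differences in the level of *Tmc1* was not tested. In bulk libraries, fewer expressing cells and less RNA per cell cannot be told apart.

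*Tmc2* (ENSMUSG00000060332, chr2:130020930-130090181, plus strand) encodes the subunit that serves developing HCs. SC libraries held 2 and 1 reads of it. The cHC libraries had 60.5 and 26.2 CPM, OHCs (P7) 22.9 and 4.94 CPM, and OHCs (P22) 0 and 6.40 CPM. No read was counted in either IHC library, where 3 counts stand for 0.101 and 0.103 CPM. *Tmc2* was therefore highest in cHCs, and both cHC libraries lay above every library of the other cell types. OHCs (P7) came next, followed by OHCs (P22), SCs and IHCs, and the libraries of OHCs (P22) overlapped with those of OHCs (P7) and of SCs. The mean of cHCs was 870 times the pooled SC level (95% counting interval 298 to 4220), although the log2 fold change of 9.51 (SE 2.76) did not pass (edgeR FDR = 0.149). It passed with DESeq2 and with limma-voom (FDR = 0.0226), and without OHC (P22) library m21 (FDR = 0.0312) or f22 (FDR = 0.0396). Against IHCs, *Tmc2* was at least 421-fold higher in cHCs and at least 135-fold higher in OHCs (P7), with the floor of 3 counts per IHC library. The differences of IHCs (edgeR FDR = 0.125), OHCs (P7) (FDR = 0.838) and OHCs (P22) (FDR = 0.360) from cHCs did not pass, and the first of these passed with DESeq2 (FDR = 1.69e-06) and limma-voom (FDR = 0.00979).

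The balance of the paired channel genes was compared per length, as CPM per kb of annotated exon. *Tmc2* made up 64.7% and 95.1% of the summed *Tmc1* and *Tmc2* level in cHC libraries 13 and 16. In OHCs (P7) its share was 7.36% and 1.7%, in OHCs (P22) 0% and 0.987%, and in IHCs 0% in both. As a share of raw reads, the exact binomial 95% intervals, which cover counting error only, were 54.7% to 58.6% and 91.6% to 94.6% in cHCs, and in IHCs a count of 0 allowed at most 0.05% and 0.0688%. The SC libraries held 7 and 11 reads of both genes, too few for a share to be read. The cHC libraries lay above all HC libraries in this share, and an exact two-sided permutation test of 2 libraries against 2 cannot give a p below 0.333. The summed level itself was 29.1 and 8.57 CPM per kb in cHCs, under the 40.9 to 289 CPM per kb of the HC libraries.

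**Figure D2:**
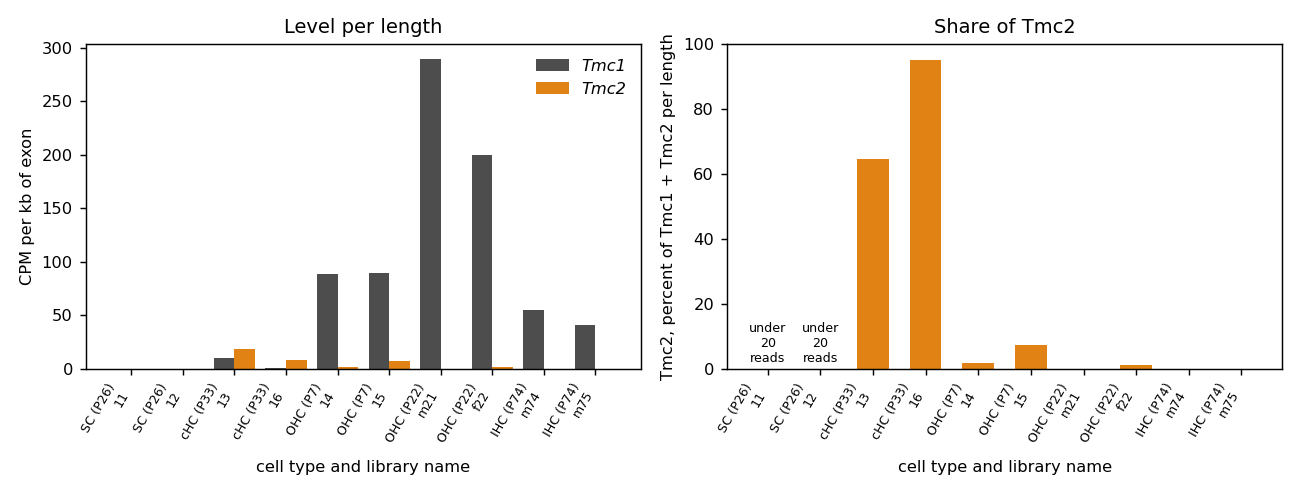
Left, level of *Tmc1* and *Tmc2* in CPM per kb of exon in each library, labelled by cell type and library name; right, share of *Tmc2* in the summed level of both genes per length, in percent. *Tmc2* takes 64.7% and 95.1% in the cHC libraries and at most 7.36% in the HC libraries; SC libraries with under 20 reads have no bar.

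*Tmie* (ENSMUSG00000049555, chr9:110768215-110782617, minus strand) encodes a small membrane protein of the channel complex. Its levels were 0.0888 and 0.266 CPM in SCs, from 2 and 10 reads, 76.7 and 76.8 CPM in cHCs, 61.3 and 120 CPM in OHCs (P7), 143 and 322 CPM in OHCs (P22), and 106 and 63.7 CPM in IHCs. The cHC libraries lay within the range of OHCs (P7) and of IHCs and below OHCs (P22). From SCs to cHCs it rose by 8.66 on the log2 scale (SE 0.97, edgeR FDR = 0.000784). *Tmie* shares 244 exon bases with *Als2cl* on the opposite strand, and the counting is not stated to use strand. *Als2cl* held 1824 reads over all 10 libraries.

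*Lhfpl5* (ENSMUSG00000062252, chr17:28712663-28720538, plus strand) encodes a tetraspan partner of protocadherin 15. SCs had 0.355 and 0.823 CPM of it, cHCs 211 and 512 CPM, OHCs (P7) 126 and 196 CPM, OHCs (P22) 565 and 377 CPM, and IHCs 184 and 149 CPM. Both cHC libraries were above both OHC (P7) and both IHC libraries and overlapped with OHCs (P22). Its rise from SCs to cHCs was 9.22 on the log2 scale (SE 0.84, edgeR FDR = 0.000161). From cHCs to OHCs (P7) the log2 fold change was -1.17 (SE 0.59), which did not pass (edgeR FDR = 0.488).

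*Cib2* (ENSMUSG00000037493, chr9:54392601-54408025, minus strand) encodes a calcium- and integrin-binding protein that binds the TMC proteins. It was the gene whose SC libraries differed most, with 0.666 CPM in library 12 and 8.61 CPM in library 11. The cHC libraries had 309 and 304 CPM, OHCs (P7) 480 and 379 CPM, OHCs (P22) 544 and 676 CPM, and IHCs 489 and 363 CPM. All HC libraries were thus above both cHC libraries. *Cib2* rose from SCs to cHCs by 6.04 (SE 1.0, edgeR FDR = 0.00911), but did not pass when only these 4 libraries were fitted (FDR = 0.101). It shares 227 exon bases with *Sh2d7* on the opposite strand, which held 1094 reads over the 10 libraries.

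*Cdh23* (ENSMUSG00000012819, chr10:59765496-60159238, minus strand) encodes cadherin 23, the upper part of the tip link. SC libraries had 0.755 and 1.57 CPM and cHC libraries 301 and 797 CPM. OHCs (P7) had 344 and 435 CPM, OHCs (P22) 1693 and 641 CPM, and IHCs 441 and 423 CPM. The cHC libraries spanned those of OHCs (P7) and IHCs and overlapped with OHCs (P22), so that SCs were the only cell type set apart from its neighbour in the order of levels. The rise from SCs to cHCs was 8.87 on the log2 scale (SE 0.85, edgeR FDR = 0.000239), with an FDR of 0.0652 in limma-voom. No difference of cHCs from a HC type passed, and the largest was 1.09 (SE 0.61, edgeR FDR = 0.354) for OHCs (P22).

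*Pcdh15* (ENSMUSG00000052613, chr10:72562090-74112482, plus strand) encodes protocadherin 15, the lower part of the tip link. It was the member that varied least. Its levels were 128 and 269 CPM in SCs, 193 and 385 CPM in cHCs, 198 and 277 CPM in OHCs (P7), 171 and 168 CPM in OHCs (P22), and 189 and 184 CPM in IHCs. The cHC and SC libraries overlapped, with a log2 fold change of 0.54 (SE 0.54, edgeR FDR = 0.699), and none of the 9 comparisons passed. The HC types differed from SCs by between -0.23 and 0.26 on the log2 scale, with an SE of 0.54 in each case. In the GENCODE annotation a pseudogene inside the gene bears the same symbol, and its 468 exon bases on the same strand cannot be separated from those of *Pcdh15* in the counts.

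Because *Cdh23* changed and *Pcdh15* did not pass, the ratio of the tip link genes differed between SCs and the other cells. Reads of *Cdh23* per read of *Pcdh15* were 0.00589 and 0.00583 in SCs, 1.56 and 2.07 in cHCs, 1.74 and 1.57 in OHCs (P7), 9.91 and 3.82 in OHCs (P22), and 2.33 and 2.29 in IHCs. The cHC libraries spanned those of OHCs (P7) and lay below those of OHCs (P22) and IHCs. Reads of *Pcdh15* were thus plentiful in SC libraries that held 17 and 59 reads of *Cdh23*. The exons of *Pcdh15* in the annotation add up to 21940 bases, but its longest annotated transcript has 9184, so its levels per length depend on which is used.

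*Ush1c* (ENSMUSG00000030838, chr7:53450720-53493873, minus strand) encodes harmonin, a PDZ scaffold that binds cadherin 23. It had 130 and 112 CPM in SCs, 84.4 and 118 CPM in cHCs, and 93.9 and 141 CPM in OHCs (P7), and these ranges overlapped. OHCs (P22) had 1726 and 482 CPM and IHCs 601 and 499 CPM, above all libraries of the other series. From SCs to cHCs the log2 fold change was -0.26 (SE 0.57, edgeR FDR = 0.892). OHCs (P22) were higher than SCs by 3.19 (SE 0.62, edgeR FDR = 0.00988) and higher than cHCs by 3.45 (SE 0.63, edgeR FDR = 0.0143). Without library m21, which holds the highest value, these differences were 1.93 (FDR = 0.0680) and 2.22 (FDR = 0.0745). IHCs were above SCs by 2.19 (SE 0.59), which did not pass (edgeR FDR = 0.0899) and passed with DESeq2 (FDR = 0.0358). The high and low levels of *Ush1c* follow the library series as well as the age of the HCs, and these cannot be told apart.

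*Ush1g* (ENSMUSG00000045288, chr11:115176506-115183355, minus strand) encodes SANS, which joins harmonin to myosin 7a. SCs held 0 and 1 reads, and levels were 3.19 and 26.3 CPM in cHCs, 2.82 and 3.33 CPM in OHCs (P7), 12.2 and 17.1 CPM in OHCs (P22), and 4.11 and 25.4 CPM in IHCs. The mean of cHCs was 888 times the pooled SC level, with a 95% counting interval of 159 to 35058 from the single SC read. From SCs, the log2 fold change was 9.54 (SE 2.30) to cHCs and 9.53 (SE 2.30) to OHCs (P22), with unadjusted edgeR p values of 0.00165 and 0.00166. The first did not pass after adjustment (edgeR FDR = 0.0721), though it did with DESeq2 (FDR = 9.71e-06) and limma-voom (FDR = 0.0256). The second passed (edgeR FDR = 0.0288), in a comparison where 8.02% of all genes were called, against 1.84% for cHCs. The latter did not pass without library m21 (FDR = 0.0511), SC library 12 (FDR = 0.124) or SC library 11 (FDR = 0.0880).

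*Loxhd1* (ENSMUSG00000032818, chr18:77520697-77681080, plus strand) encodes a protein of PLAT domains along the stereocilia that mature HCs need for transduction. Its levels were 0.178 and 0.372 CPM in SCs, 122 and 211 CPM in cHCs, 267 and 317 CPM in OHCs (P7), 1693 and 950 CPM in OHCs (P22), and 344 and 376 CPM in IHCs. No neighbours overlapped in the order OHCs (P22), IHCs, OHCs (P7), cHCs and SCs. *Loxhd1* rose from SCs to cHCs by 9.18 on the log2 scale (SE 0.71, edgeR FDR = 7.21e-05), the smallest FDR of the 10 genes. It was higher again in OHCs (P22) than in cHCs by 2.99 (SE 0.53, edgeR FDR = 0.0134), which was 2.48 (FDR = 0.0590) without library m21.

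The other HC types were compared with SCs in the same way. In OHCs (P7), 6 of the 10 genes were higher than in SCs (3.41% of all genes called), in OHCs (P22) 8 (8.02%), and in IHCs 6 (2.65%), and none was lower. The 6 genes called in OHCs (P7) and in IHCs were the same 6 as in cHCs, and *Ush1c* and *Ush1g* were added in OHCs (P22). For *Ush1g* the log2 fold change from SCs was nearly equal in cHCs (9.54), IHCs (9.54) and OHCs (P22) (9.53). Its unadjusted edgeR p was 0.00165, 0.00165 and 0.00166 in that order. It was called only in OHCs (P22), where the largest share of all genes was called, so the call does not set these cells apart. Without library m21, 6 passed in OHCs (P22). Median log2 fold changes from SCs over the 10 genes were 7.96 in OHCs (P7), 9.57 in OHCs (P22) and 8.32 in IHCs, where all genes tested had a median of 0. In fits of only the libraries numbered 11 to 16, 7 genes passed in OHCs (P7), with *Tmc2* added (FDR = 0.0461). Over all 15599 genes of that fit, 366 were called higher and 156 lower.

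The HC types were then compared with cHCs, and these comparisons share the cHC libraries. OHCs (P22) were higher than cHCs in 3 of the 10 genes, *Tmc1*, *Ush1c* and *Loxhd1*, and lower in none, where 3.18% of all genes were called and 1.16% were called higher. *Tmc1* differed by 5.52 on the log2 scale (SE 1.14, edgeR FDR = 0.0258), more than any other member that was called in this comparison. The median over the 10 genes was 1.04, against -0.19 over all genes tested. Without library m21, 0 genes passed, with FDRs of 0.0605, 0.0745 and 0.0590 for *Tmc1*, *Ush1c* and *Loxhd1*, and 0 passed when only the 4 libraries compared were fitted. Without cHC library 13, 1 passed, *Tmc1*, with a log2 fold change of 9.17.

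OHCs (P7) differed from cHCs in 0 of the 10 genes by edgeR, where 0.343% of all genes were called. An unadjusted p under 0.05 was found for 1 gene, *Tmc1* (11.2% of all genes), and this gene also passed with DESeq2 (FDR = 0.00547, 6.58% of all genes called) and with limma-voom (FDR = 0.0263, 2.24%). Its log2 fold change was 4.06 (SE 1.07, edgeR FDR = 0.185), and it was 3.98 (FDR = 0.303) among the libraries numbered 11 to 16. Without cHC library 13 it was 7.72 (FDR = 0.00105). The other 9 genes differed by between -2.26 for *Ush1g* and 0.81 for *Loxhd1*, and the median over all 10 was -0.03, against -0.09 over all genes tested.

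IHCs differed from cHCs in 0 of the 10 genes by edgeR (0.924% of all genes called), and 4 genes had an unadjusted p under 0.05 (12.8%). DESeq2 called 3, *Tmc1*, *Ush1c* and, lower in IHCs, *Tmc2* (8.03% of all genes called), and limma-voom called *Tmc1* and *Tmc2* (4.37%). *Tmc1* was above cHCs in both IHC libraries, with a log2 fold change of 3.17 (SE 1.02, edgeR FDR = 0.248).

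Among the HCs, OHCs (P22) differed from OHCs (P7) in 0 of the 10 genes by edgeR (0.551% of all genes called), and 4 had an unadjusted p under 0.05 (13.9%). *Ush1c* came closest, with a log2 fold change of 3.24 (SE 0.62, edgeR FDR = 0.0506), followed by *Loxhd1* with 2.18 (SE 0.51, edgeR FDR = 0.0993). DESeq2 called both (9.6% of all genes called), and limma-voom called *Loxhd1* (0.651%). Without library m21 the values were 2.05 and 1.71. The median over the 10 genes was 1.5, against -0.04 over all genes tested.

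IHCs differed from OHCs (P22) in 0 of the 10 genes by edgeR (1.46% of all genes called), with 5 at an unadjusted p under 0.05 (15.2%). *Tmc2* aside, which had no counts in IHCs, *Tmc1* differed most, with a log2 fold change of -2.35 (SE 0.99, edgeR FDR = 0.299). DESeq2 called *Tmc2* and *Loxhd1* (12% of all genes called), and limma-voom called *Tmc1* and *Loxhd1* (1.77%), all lower in IHCs. Fitting only the libraries of higher number, which hold both cell types, called 0 as well (67 of 13619 genes higher and 50 lower).

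**Figure D3:**
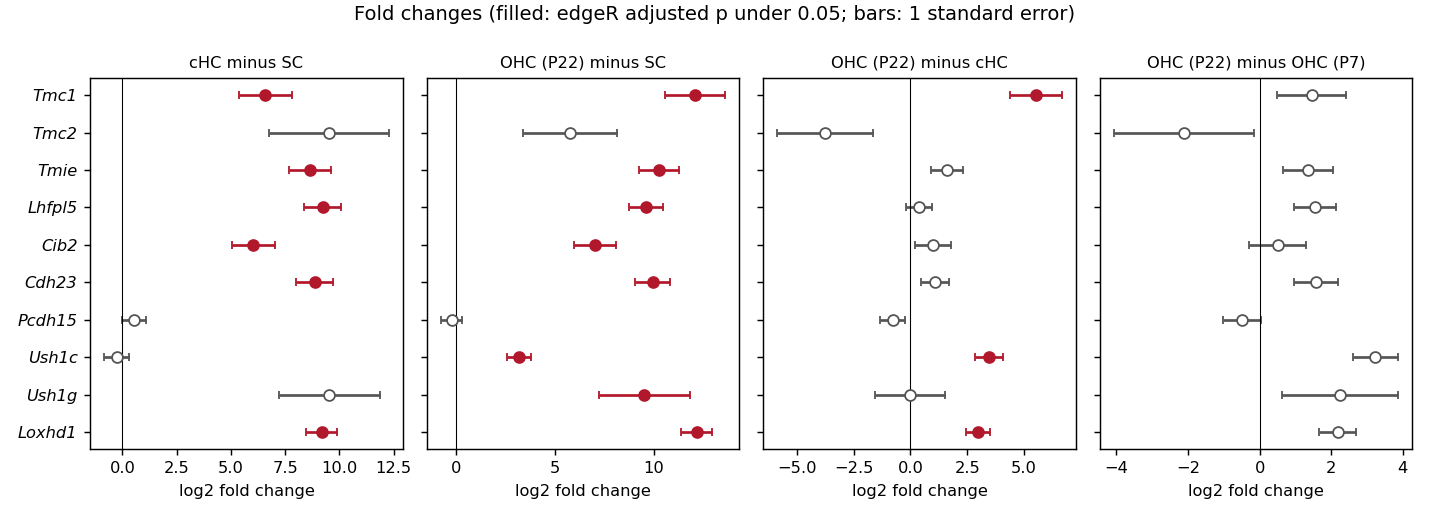
Log2 fold change of each gene in 4 comparisons, with bars of 1 standard error; filled points passed an edgeR FDR of 0.05, and the horizontal scales differ between panels. Against SCs, *Pcdh15* stands near 0 in both cHCs and OHCs (P22) and the 6 genes called in cHCs stand at 6.04 or more in both, while between OHCs (P22) and cHCs 3 genes passed, *Tmc1*, *Ush1c* and *Loxhd1*.

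Levels were also ordered among the genes, per length of annotated exon. The place of *Pcdh15* depends on the length used, because its longest annotated transcript has 9184 bases and its exons add up to 21940. In cHCs, *Lhfpl5* was highest with 287 ± 169 CPM per kb (SD, n = 2) and *Cib2* next with 214 ± 2.42, although *Cib2* (215) was above *Lhfpl5* (167) in library 13. They were followed by *Cdh23* (32.4 ± 20.7), *Ush1c* (27.5 ± 6.41), *Tmie* (27.4 ± 0.0239), *Loxhd1* (20.3 ± 7.68), *Tmc2* (13.5 ± 7.53), *Pcdh15* (13.2 ± 6.20), *Tmc1* (5.34 ± 6.96) and *Ush1g* (4.46 ± 4.95), all in CPM per kb. Neighbours from *Cdh23* to *Pcdh15* in this order differed by less than the SD of at least 1 of them, as did *Tmc1* and *Ush1g*. In OHCs (P22), *Cib2* (426 ± 64.9 CPM per kb) and *Lhfpl5* (374 ± 105) had the highest means as well, followed by *Ush1c* (301 ± 240), which was highest in library m21 (471), and *Tmc1* stood at 244 ± 63.5 CPM per kb while *Tmc2* was last with 0.994 ± 1.41. *Tmc1* per length was thus 0.423 to 10.3 CPM per kb in the cHC libraries and 199 to 289 CPM per kb in those of OHCs (P22), whereas *Lhfpl5* per length was 167 to 406 and 299 to 448 CPM per kb.

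Sequences upstream of some members are shown because Atoh1, the factor expressed in cHCs, is a basic helix-loop-helix protein of the class that binds E-boxes. Windows of 7 of the 10 genes were taken from the RefSeq promoter table (GRCm38.p6). The remaining genes had no entry or were left out, and their windows were not examined. For the 7 genes, the 250 bases before the annotated start were matched exactly, and once, to mm9. *Lhfpl5* and *Cdh23*, which rose at similar size, are set beside *Tmc1*, which differed 24.3-fold between the cHC libraries, and *Pcdh15*, which did not pass. Capitals mark each CAGNTG on either strand, which reads CAGNTG or CANCTG on the strand printed, and positions are counted from the start. The windows are chr17:28712414-28712663 (plus strand) for *Lhfpl5*, chr10:60159239-60159488 (minus) for *Cdh23*, chr19:21028693-21028942 (minus) for *Tmc1* and chr10:73284365-73284614 (plus) for *Pcdh15*, in mm9, and the last lies 722525 bases downstream of the start of the gene in GENCODE.
Lhfpl5: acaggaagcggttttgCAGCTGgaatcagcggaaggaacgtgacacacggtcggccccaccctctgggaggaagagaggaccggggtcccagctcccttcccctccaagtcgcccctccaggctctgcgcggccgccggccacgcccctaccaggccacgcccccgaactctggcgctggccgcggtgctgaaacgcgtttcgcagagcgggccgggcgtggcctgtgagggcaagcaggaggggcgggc
Cdh23: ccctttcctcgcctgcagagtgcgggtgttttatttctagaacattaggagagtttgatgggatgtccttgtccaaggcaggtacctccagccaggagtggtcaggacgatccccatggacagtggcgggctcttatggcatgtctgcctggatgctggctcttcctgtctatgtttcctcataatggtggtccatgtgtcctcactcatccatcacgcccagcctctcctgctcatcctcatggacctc
Tmc1: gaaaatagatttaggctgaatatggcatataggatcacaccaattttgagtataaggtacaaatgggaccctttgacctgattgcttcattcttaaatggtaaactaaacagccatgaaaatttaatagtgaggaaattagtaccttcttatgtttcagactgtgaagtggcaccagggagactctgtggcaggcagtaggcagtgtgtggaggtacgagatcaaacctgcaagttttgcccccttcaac
Pcdh15: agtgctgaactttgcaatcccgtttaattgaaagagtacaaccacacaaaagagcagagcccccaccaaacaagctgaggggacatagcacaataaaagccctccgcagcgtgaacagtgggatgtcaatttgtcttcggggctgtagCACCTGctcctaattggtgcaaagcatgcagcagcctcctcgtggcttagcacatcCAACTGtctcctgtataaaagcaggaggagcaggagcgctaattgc
The letters CAGNTG, on either strand, were found in 4 of the 7 windows, once in *Lhfpl5* (at -234), *Tmie* (-206) and *Ush1c* (-134) and at -102 and -46 in *Pcdh15*, and in no window of *Tmc1*, *Cib2* or *Cdh23*. Of all 32851 entries of the table, 44.8% held it. The 3 genes without these letters in the window rose from SCs to cHCs, as did *Lhfpl5* and *Tmie*, which hold them. *Pcdh15* and *Ush1c*, which hold them too, did not pass. Whether these letters bear on the levels was not tested, and sequence outside the windows was not examined.

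Across the 10 libraries, 6 members followed each other closely. The Pearson correlation of a gene's log2 CPM with the mean of the other members was 0.99 for *Lhfpl5* and *Cdh23*, 0.985 for *Tmie*, 0.980 for *Loxhd1*, 0.972 for *Cib2* and 0.919 for *Ush1g*. It was 0.772 for *Tmc1*, 0.302 for *Ush1c*, 0.264 for *Tmc2* and 0.135 for *Pcdh15*. *Tmc1* and *Tmc2* had 0.112 with each other, and *Tmc2* and *Ush1c* -0.60. These values describe 10 libraries of 5 cell types, in which the distance of SCs from all HCs is shared by most points. The genes outside the list whose profile was most like the mean of the members were *Dner* (r = 0.987), *Lin28b*, *4932411E22Rik* and *Rbm24* (each 0.986) and *Col20a1* (0.985). *Rbm24*, which encodes an RNA-binding protein, had 0.577 and 0.637 CPM in SCs, 162 and 278 CPM in cHCs and 867 and 902 CPM in OHCs (P22). Most like *Tmc1* were *Strada* (0.984), *Dusp27* (0.978) and *Car7* (0.974). *Car7*, a carbonic anhydrase, had 5.87 CPM in cHC library 13 and 0.102 CPM in library 16. Most like *Tmc2* were *Gm13298* (0.988), *Gm2542* (0.981) and *Grp* (0.977). *Grp*, which encodes gastrin-releasing peptide, had 179 and 284 CPM in cHCs, 23.8 and 4.50 CPM in OHCs (P7), and 0 and 17.5 CPM in OHCs (P22).

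A list of 34 further genes of these families and of stereocilia was examined, of which 30 were tested. In cHCs, 13 of the 30 were higher than in SCs, 0 were lower and 17 did not pass (1.84% of all genes called and 1.75% called higher), with a median log2 fold change of 6.67. Partners and trafficking genes made up 12 of the 13. *Clrn1* (clarin 1) rose from 0.0888 and 0.133 CPM to 27.8 and 39.7 CPM, a log2 fold change of 8.16 (SE 0.68, edgeR FDR = 8.99e-05). *Tomt*, whose product is needed to bring TMC proteins to the bundle, rose by 8.83 (SE 1.63, FDR = 0.0184) to 4.81 and 16.2 CPM. *Whrn* (whirlin) rose by 6.20 (SE 1.32, FDR = 0.0396), *Ptprq* (a phosphatase of the stereocilia membrane) by 8.77 (SE 0.45, FDR = 1.25e-05) and *Myo7a* (myosin 7a) by 2.22 (SE 0.47, FDR = 0.0392).

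The 5 tested TMC relatives and the 2 CIB relatives did not pass between SCs and cHCs, and 1 of 4 LHFPL relatives did. That gene, *Lhfpl2*, had 0.0888 and 0.398 CPM in SCs, 74.2 and 221 CPM in cHCs, and 0.176 and 0.253 CPM in OHCs (P22). OHCs (P7) had 7.18 and 2.16 CPM and IHCs 1.48 and 12.4 CPM, above both SC libraries. It was higher in cHCs than in SCs by 9.17 on the log2 scale (SE 1.68, FDR = 0.0177) and lower in OHCs (P22) than in cHCs, with a log2 fold change of -9.37 (SE 1.71, FDR = 0.0145). *Cib3*, a relative of *Cib2* named here after its values were seen, had 3.74 and 44.8 CPM in cHCs and at most 0.0546 CPM in any other library, with an edgeR FDR of 0.170 against SCs.

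Of the 30 genes, 12 were higher in OHCs (P7) than in SCs (3.41% of all genes called), 14 were higher and 1, *Fam38a* (Piezo1), was lower in OHCs (P22) (8.02%), and 11 were higher in IHCs (2.65%). OHCs (P22) were higher than cHCs in *Clrn1* by 3.67 (SE 0.53, FDR = 0.00594) and lower in *Lhfpl2* and *Pkhd1l1*, the latter with 206 CPM in cHC library 13 but 1.80 CPM in library 16. *Clrn1* was also higher in IHCs than in cHCs, by 2.93 (SE 0.51, FDR = 0.0221). *Fam38b* (Piezo2), also named after its values were seen, had 16.2 and 25.5 CPM in cHCs, 13.8 and 0.464 CPM in OHCs (P7) and no counts in OHCs (P22) or IHCs, and did not pass between SCs and cHCs (FDR = 0.194).

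**Figure D4:**
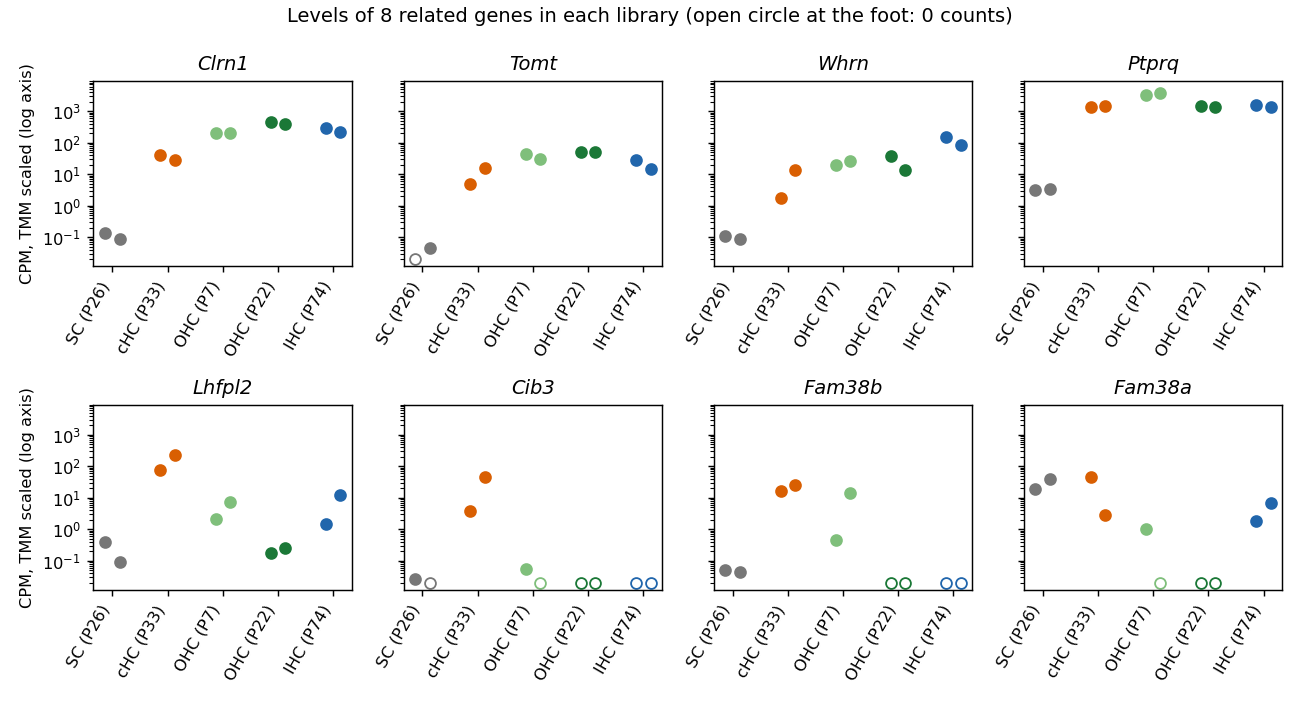
Level of 8 genes of the related list in every library, in CPM after TMM scaling on a log axis; points are libraries, open circles at the foot mark 0 counts, and *Cib3*, *Fam38b* and *Fam38a* were chosen for display after their values were seen. *Clrn1*, *Tomt* and *Whrn* were above 13 CPM in all HC libraries, whereas *Cib3* and *Fam38b* are at 0 counts in OHCs (P22) and IHCs and *Lhfpl2* is at 0.253 CPM or less in OHCs (P22).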

How the data were processed

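The authors deposited HTSeq counts per gene for each library, made per the labels and the study's methods from Ovation RNA-Seq V2 paired-end reads with CASAVA 1.7, Cutadapt, STAR, BWA and the mm9 build. A normalized table was also deposited (unit score), and was used to match files to libraries, by a constant ratio to the counts. Rows that name no gene were left out of library sizes, among them reads on no feature, 31.5% to 61.8% of the reads on genes, on none or on several.

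Counts were scaled by TMM and fitted in 1 edgeR 4.0.16 quasi-likelihood model of all 10 libraries after filterByExpr by cell type (R 4.3.3). FDRs are Benjamini-Hochberg values over 16891 genes, with a threshold of 0.05, and SE is the log2 fold change over the square root of F. The alternatives were DESeq2 1.42.0, limma-voom (limma 3.58.1, the study's method), other filters and scaling, only the compared cell types, leaving out each library, and the files as attached. Fits within 1 library series were chosen after seeing the data. Levels per length used GENCODE exons in mm9. The script was tested on simulated data. Reads carry counting error and, with 2 libraries a group, little information on spread.

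The genes and lists were chosen with earlier results of these data known. From the related list, up to 8 genes with a call between SCs and cHCs or between OHCs (P22) and OHCs (P7) were named, besides those marked as chosen later or named from a small count. Some genes of that list are not reported here.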

Additional observations from a re-analysis of the deposited data

How the results depend on the processing

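Of 1422 fold changes of the 10 genes under the alternatives other than the files as attached, 1296 kept their direction and side of the threshold, 24 lost the call, 70 gained it and 32 changed sign, none of the last from a called value. With at least 10 counts in every library, 7279 genes could be tested, among them 4 of the 10 genes. Against SCs, the number of these called was 2 for cHCs (over all genes, 115 higher and 17 lower) and 2 for OHCs (P7) (217 and 120). It was 3 for OHCs (P22) (471 and 437) and 3 for IHCs (243 and 101) against SCs. It was 1 for OHCs (P22) against cHCs (188 and 191) and 1 for OHCs (P22) against OHCs (P7) (52 and 63). With the files as attached, 0 of the 10 genes were called in the comparisons of cHCs, OHCs (P7), OHCs (P22) and IHCs with SCs. The same held for OHCs (P22) against cHCs. In each of these, 0 of all 16891 genes were called, because libraries of different cell types then form a group. For OHCs (P7) against cHCs, DESeq2, limma-voom and no filter each called 1 (with no filter, 214 of 23415 genes higher and 344 lower). For OHCs (P22) against cHCs, the compared cell types alone gave 0 (107 of 14263 genes higher and 203 lower). For IHCs against cHCs, DESeq2 called 3 and limma-voom 2. No filter called 3 (288 of 23415 genes higher and 383 lower) and the compared cell types alone 1 (78 of 14833 higher and 117 lower). For OHCs (P22) against OHCs (P7), the number called was 2 with DESeq2 and 1 with limma-voom. It was 2 with no filter (297 of 23415 genes higher and 547 lower) and 1 with upper-quartile scaling (26 of 16891 higher and 72 lower). For IHCs against OHCs (P22) they were 2, 2 and 3 with DESeq2, limma-voom and no filter. Apart from the alternatives named, the cause was not tested.

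Leaving out 1 library at a time, the number called ranged from 5 to 7 for cHCs, 6 to 7 for OHCs (P7), 6 to 8 for OHCs (P22) and 6 to 7 for IHCs against SCs. It ranged from 0 to 1 for OHCs (P7), 0 to 3 for OHCs (P22) and 0 to 2 for IHCs against cHCs, from 0 to 2 for OHCs (P22) against OHCs (P7) and from 0 to 1 for IHCs against OHCs (P22). The number called over all genes also changed with the library left out, so these ranges do not describe the members alone. The share of *Tmc2* ranged from 12.3% to 35.9% in SCs (11 and 7 reads of both genes, too few to read a share from), 64.7% to 95.1% in cHCs, 1.7% to 7.36% in OHCs (P7) and 0% to 0.987% in OHCs (P22), and was 0% in IHCs.

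Sign changes of log2 fold changes that were not called were as follows. Against SCs, *Pcdh15* was -0.04 in cHCs without cHC library 16, -0.18 and -0.05 in OHCs (P7) without SC library 12 or OHC library 14, 0.4 in OHCs (P22) and 0.54 in IHCs without SC library 11. *Ush1c* in OHCs (P7) against SCs was 0.05 with limma-voom, 0.01 with upper-quartile scaling, and 0.07 and 0.22 without SC library 12 or OHC library 15. *Tmc2* in OHCs (P22) against SCs was -3.69 without library f22. For OHCs (P7) against cHCs, *Tmie* was -0.46 without OHC library 14, *Cdh23* 0.37 and *Pcdh15* 0.3 without cHC library 16, and *Ush1c* -0.00023 and -0.24 without cHC library 13 or OHC library 14. For OHCs (P22) against cHCs, *Lhfpl5* was -0.12 without cHC library 13, and *Ush1g* 0.05 with DESeq2, 0.45 with limma-voom, 2.19 without cHC library 16 and 0.18 without library m21. For IHCs against cHCs, *Tmie* was -0.27 without IHC library m74, *Cdh23* 0.51 without cHC library 16, and *Ush1g* 2.2 and 0.78 without cHC library 16 or IHC library m74. For IHCs against OHCs (P22), *Ush1c* was 0.16 without library m21, and *Ush1g* -0.09 with DESeq2, -0.56 with limma-voom, -0.05 with upper-quartile scaling, -0.02 with the compared cell types alone and with the libraries of higher number alone, and -0.25 and -1.83 without OHC library m21 or IHC library m75. Over all fits that left out 1 library, the ranges of these log2 fold changes were -0.04 to 1.17 for *Pcdh15* in cHCs against SCs. They were -0.18 to 0.89 for *Pcdh15* and -0.43 to 0.22 for *Ush1c* in OHCs (P7) against SCs, with -3.69 to 6.7 for *Tmc2* and -0.67 to 0.4 for *Pcdh15* in OHCs (P22) against SCs. They were -0.53 to 0.54 for *Pcdh15* in IHCs against SCs, with -0.46 to 0.65 for *Tmie*, -1.03 to 0.37 for *Cdh23*, -0.69 to 0.3 for *Pcdh15* and -0.24 to 0.48 for *Ush1c* in OHCs (P7) against cHCs. They were -0.12 to 1.15 for *Lhfpl5* and -0.85 to 2.19 for *Ush1g* in OHCs (P22) against cHCs, with -0.27 to 0.46 for *Tmie*, -0.88 to 0.51 for *Cdh23* and -1.84 to 2.2 for *Ush1g* in IHCs against cHCs. They were -1.65 to 0.16 for *Ush1c* and -1.83 to 0.8 for *Ush1g* in IHCs against OHCs (P22).

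No paired analysis was possible because the libraries of the compared cell types share no replicate number. With 2 libraries a cell type, each gene has 5 residual degrees of freedom, to which the edgeR model adds information on spread from all genes tested. Where 1 library was left out, the lone library was assumed to vary like the other groups. Values under the floor of 3 counts limit *Tmc2* and *Ush1g* in both SC libraries and *Tmie* in SC library 12. *Tmc2* also had 0 counts in both IHC libraries and in OHC (P22) library m21.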
